A study of Mus musculus with 21 samples.

Results

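Tubular epithelial cells (TECs) isolated from mouse kidneys after ischemia-reperfusion injury (IRI) were compared between animals that had received remote ischemic preconditioning (RIPC) and animals that had not. The comparison used 5 of the 21 libraries of the series, chosen by their labels, of which 3 were TECs IRI RIPC and 2 were TECs IRI Control. The 6 TECs libraries after sham surgery, 3 with and 3 without RIPC, served as the uninjured level. All mice were wildtype, male C57BL/6 animals, and all cells were isolated 24 hours after surgery. In the IRI groups the renal pedicles were clamped for a time and released, whereas sham animals were operated without clamping. RIPC was a series of short inflations of a cuff around a hind limb before surgery, and control animals did not receive it. Per the study's methods, kidneys were digested with collagenase and TECs were collected with magnetic beads carrying an antibody to prominin-1, a membrane protein of tubular cells. The study describes the libraries as biological replicates, and the labels do not name the animals, so p-values measure the spread between these libraries.

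The proximal tubule reclaims most of the filtered sodium, glucose, phosphate, amino acids and small organic acids through transporters of its brush border, driven by sodium gradients that mitochondria pay for. Ischemia followed by reperfusion injures this segment first. Surviving cells lose transport and mitochondrial transcripts, and express injury genes such as Havcr1, which encodes kidney injury molecule-1, and Lcn2, which encodes neutrophil gelatinase-associated lipocalin. The comparison asks how far these gene programs were spared when IRI was preceded by RIPC.

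The IRI control libraries held 31988676 and 28757951 estimated reads, the IRI RIPC libraries 26812651, 21479605 and 32090079, and the sham libraries between 25456279 and 51624602. Values are TMM-normalized counts of a gene in a library, put on one depth for every library (CPM), compared only within a gene. A count of 0 allows up to 3 reads, or between 0.083 and 0.143 CPM depending on the library, and since the reads were amplified by PCR without molecular identifiers, this limit covers counting error only. The libraries of a group were not close to each other. Over 7400 genes, the correlation was 0.581 between the 2 IRI control libraries, 0.446 to 0.542 among the IRI RIPC libraries and 0.489 to 0.64 between the groups. The common biological coefficient of variation was 1.54. IRI RIPC replicate 3 stood apart by its TMM scaling factor of 0.7755, against 1.195 and 1.238 in replicates 1 and 2, and values without it are given beside the lists and genes whose direction it decides. Sham Control replicate 1 carried injury transcripts, with Havcr1 at 82.8 CPM against 0 to 1.07 CPM in the other 5 sham libraries.

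The label of the cells was checked with 20 genes of proximal tubule identity, all of which passed the filter. Their summed level was 8864 and 7441 CPM in the IRI control libraries and 5642, 6489 and 18280 CPM in the IRI RIPC libraries, against 31230 to 61250 CPM after sham surgery. All 5 IRI libraries lay below all 6 sham libraries. In IRI RIPC replicate 3, the level was above that of both controls, and in replicates 1 and 2 it was below both. Prom1, which encodes the protein used for the selection, was at 45.4 and 40.5 CPM in the controls and at 32.0, 8.07 and 118 CPM in the RIPC libraries. In bulk libraries, fewer cells of a type and less RNA per cell cannot be told apart.

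Across 25917 genes tested, 1 differed between RIPC and control after IRI in edgeR's quasi-likelihood test at a Benjamini-Hochberg adjusted p under 0.05, which is 0.00386% of the genes. It was Narfl, an iron-sulfur protein assembly factor of the cytosol, and it fell. Without adjustment, 1128 genes (4.35%) had a p under 0.05, of which 447 (1.72%) were higher and 681 (2.63%) lower. Complete separation of the RIPC from the control libraries occurred for 7.76% of all genes in the higher and 8.89% in the lower direction. The median log2 fold change of all genes was 0.15, and 14019 of the 25917 genes were above 0.

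Slc5a12, the sodium-coupled lactate transporter of the proximal tubule brush border (chr2:110597298-110647779, plus strand, GRCm38), was the transport gene with the smallest p. Its level was 0.0810 and 0.238 CPM in the IRI control libraries and 24.2, 8.07 and 82.8 CPM in the IRI RIPC libraries. In sham libraries it was 133, 250 and 333 CPM without RIPC and 397, 482 and 248 CPM with RIPC. Every RIPC library was above both controls, and all 5 IRI libraries were below all sham libraries. The log2 fold change between RIPC and control was 7.88 ± 1.19 (SE), with an adjusted p of 0.0542 in edgeR's quasi-likelihood test with Benjamini-Hochberg adjustment, just outside the threshold. Without IRI RIPC replicate 3 it was 6.65 with an adjusted p of 0.0572, and without either of the other RIPC libraries or either control it was below the threshold, at 0.0115 to 0.0384. With any 1 sham library left out it was 0.0625 to 0.342. Fitted on the compared groups alone, edgeR gave an adjusted p of 0.924. DESeq2 with apeglm on the same groups gave a log2 fold change of 7.4 with an s value of 8.8e-08, under its threshold of 0.01. DESeq2's Wald test on all TECs libraries gave an adjusted p of 3.93e-11, in a test that called 699 genes.

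The annotation holds 2 protein-coding and 3 other transcripts of Slc5a12, and the RIPC libraries differed in which of them held the reads. In IRI RIPC replicate 1, 540.4 reads (87.2%) were assigned to protein-coding transcripts, and in replicate 3, 1636 reads (93.4%) were. In replicate 2, none of the 176 reads were assigned to a protein-coding transcript. Sham libraries had 92.3% to 94.7% of their Slc5a12 reads on protein-coding transcripts. Transcript use like that of sham libraries was thus seen in replicates 1 and 3, and the level of replicate 2 rested on transcripts that encode no protein. The deposited assignment of short reads to transcripts of one gene is an estimate, and its error was not tested.

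Narfl (chr17:25773776-25783332, plus strand) was at 14.2 and 12.9 CPM in the controls and at 0, 0.0918 and 0 CPM in the RIPC libraries, where 71.1 to 135 CPM were measured after sham surgery. The RIPC libraries together held 2 reads, none on a protein-coding transcript, against 620 in the controls. This was 466-fold lower by the ratio of normalized counts, with an exact 95% interval for counting error only of 128 to 3857. The fitted log2 fold change was −8.61 ± 1.09, with an adjusted p of 0.0334 in edgeR's quasi-likelihood test with Benjamini-Hochberg adjustment. The call was lost when any 1 of the 6 sham libraries was left out (adjusted p 0.0625 to 0.159), without IRI RIPC replicate 3 (0.0659) and when the compared groups were fitted alone (0.924). DESeq2 with apeglm on the compared groups shrank the log2 fold change to −0.47, with an s value of 0.25. DESeq2's Wald test on all TECs libraries kept the call, with an adjusted p of 1.045e-11. Between Narfl and Slc5a12, the gene called thus depended on the method. Of its exonic bases, 9.9% are shared with Haghl, on the other strand, and Mir6966, and these libraries do not keep the strand.

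**Figure D1:**
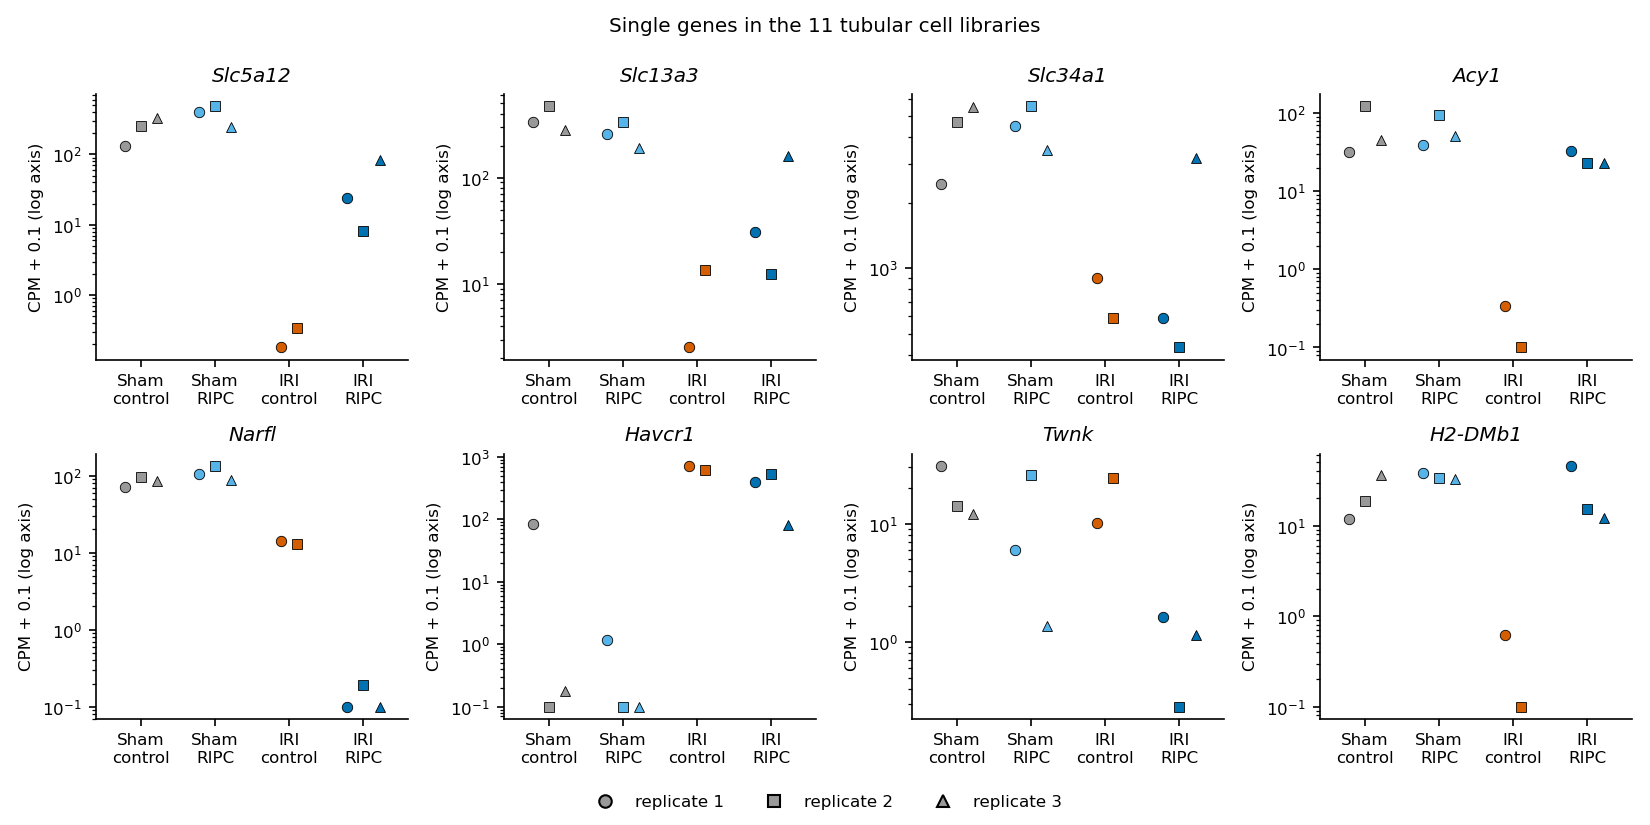
Level of named genes in each of the 11 TECs libraries, on a log axis of CPM + 0.1, with 1 panel per gene, 1 point per library and the 4 groups along the horizontal axis. Slc5a12 lay near 0 in both IRI control libraries and between 8.07 and 82.8 CPM in the IRI RIPC libraries, and Narfl showed the reverse.

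The other genes with the smallest p whose groups did not overlap had the same shape, with 1 group near 0. Higher with RIPC were Acy1 (aminoacylase 1, an enzyme of amino acid salvage in the proximal tubule), Slc44a4 (a choline-like transporter), Atat1 (a tubulin acetyltransferase) and Chchd5 (a small protein of the mitochondrial intermembrane space). Acy1 was at 0.243 and 0 CPM in the controls and at 32.8, 22.9 and 23.2 CPM in the RIPC libraries, against 32.0 to 123 CPM after sham surgery. Protein-coding transcripts held 52.7%, 82.7% and 100% of the Acy1 reads in the RIPC libraries, and 76.2% to 100% in sham libraries. Slc44a4 was at 0.608 and 0.191 CPM in the controls and at 19.3, 7.84 and 44.9 CPM with RIPC. Chchd5 had no read in either control and 14.0, 8.67 and 9.21 CPM in the RIPC libraries, at least 165-fold higher against a floor of 3 reads over the control group. For all of these genes every RIPC library was above both controls. Their adjusted p in the same edgeR test with Benjamini-Hochberg adjustment was 0.197 for Acy1 and Slc44a4, 0.291 for Atat1 and 0.337 for Chchd5. Atat1 shares 14% of its exonic bases with an antisense gene, and its reads are uncertain to that extent.

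Lower with RIPC were Add3 (adducin 3, of the membrane skeleton), Gpr160 (an orphan receptor), Fzr1 (an activator of the anaphase-promoting complex) and Slc16a13 (a monocarboxylate transporter family member). Add3 was at 28.0 and 43.2 CPM in the controls and at 0.117, 0.688 and 0.142 CPM with RIPC, a log2 fold change of −6.80 ± 0.96 and an adjusted p of 0.0502 by edgeR with Benjamini-Hochberg adjustment. Gpr160 was at 19.6 and 48.3 CPM in the controls and at 0.0390, 0 and 0.0472 CPM with RIPC. Fzr1 was at 22.2 and 20.7 CPM in the controls and at 0, 0 and 0.0472 CPM with RIPC. Both genes kept at most 2 reads in the RIPC libraries together, with adjusted p of 0.0502 and 0.0542 in the same edgeR test. Slc16a13 had no read in any RIPC library and 15.8 and 1.48 CPM in the controls, at least 211-fold lower, with an adjusted p of 0.167 by edgeR with Benjamini-Hochberg adjustment. Its control libraries were far apart from each other.

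Of 87 transport genes, 85 passed the filter on low counts, and none was differentially regulated between RIPC and control at an adjusted p under 0.05. At an unadjusted p under 0.05, 5 were higher and 1 lower with RIPC (against 1.72% and 2.63% of all genes). A log2 fold change above 0 was seen in 53 of 85, against 14019 of 25917 for all genes. The median log2 fold change was 0.22 and turned to −0.25, with 33 of 85 above 0, when IRI RIPC replicate 3 was left out. Groups did not overlap for 4 genes in the higher direction (4.71%) and for 3 in the lower direction (3.53%), against 7.76% and 8.89% of all genes. Without IRI RIPC replicate 3 these were 6 higher and 15 lower genes (7.06% and 17.6%), against 15.4% and 14.1% of all genes, and with library totals alone 8 higher and 4 lower genes (9.41% and 4.71%), against 7.42% and 7.68%.

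The transport genes were high in a single RIPC library. IRI RIPC replicate 3 was above both controls for 52 of 85 genes (61.2%, against 31.2% of all genes) and below both for 10 (25.2% of all genes). Replicates 1 and 2 were each above both controls for 18 genes (31.9% and 32.8% of all genes), and below both for 30 and 31 genes (23.6% and 26.3% of all genes). Replicate 3 held the highest level of the 5 IRI libraries for 48 transport genes (56.5%), where 20% of all genes were highest in that library. Scaled by library totals alone, this was 38 genes (44.7%), against 13.3% of all genes.

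Relative to the mean of the 6 sham libraries, the median transport gene was at 23.3% and 17% in the IRI controls. With RIPC it was at 18.7% in replicate 1, at 13.7% in replicate 2 and at 50.4% in replicate 3. Replicates 1 and 2 were thus within or below the range of the controls, and replicate 3 was above it. With library totals alone the RIPC libraries were at 22.7%, 17.1% and 39.5%, against 23.3% and 17.1% in the controls. Replicate 2 was then not below the controls, and replicate 3 was less far above them. By subgroup, sodium-coupled carriers were at 14.4%, 12.7% and 51.8% of sham in the RIPC libraries and at 14.9% and 12.8% in the controls. With library totals alone these carriers were at 17.3%, 15.9% and 40.5% with RIPC, each above both controls at 15.2% and 12.7%. Organic ion carriers were at 16.8%, 16% and 60.9% with RIPC and at 28.1% and 17.8% in the controls. With library totals alone they were at 20.6%, 19.4% and 47.4%, against 29.2% and 17.9%. Genes of facilitated transport and exchange were at 22.6%, 7.73% and 41.1% with RIPC and at 17.9% and 17.1% in the controls. In that subgroup replicate 1 was above both controls as well, and replicate 2 was below both. Genes of endocytosis were less reduced, at 53.5%, 28.2% and 54.7% of sham with RIPC and at 58.7% and 39.8% in the controls. Here the median of replicate 3 lay within the range of the controls. By single genes, replicate 3 was above both controls for 6 of 11 (54.5%, against 31.2% of all genes) and below both for 4 (36.4%, against 25.2%).

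**Figure D2:**
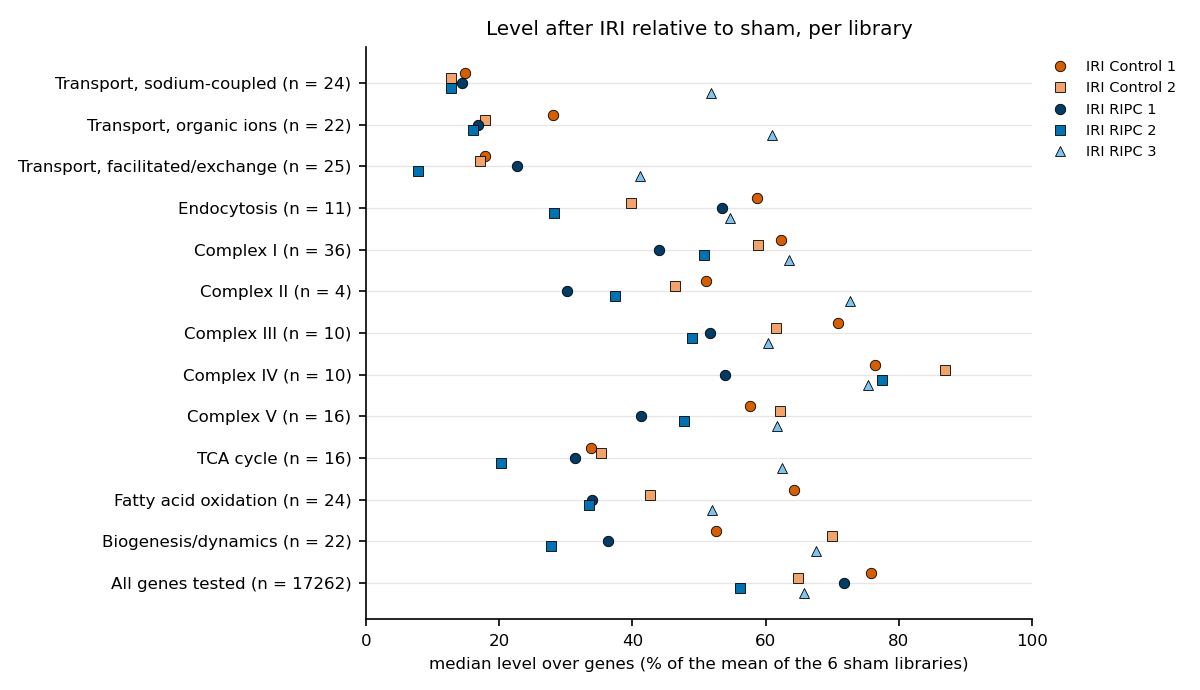
Median level of the genes of each list in each of the 5 IRI libraries, as a percentage of the mean of the 6 sham libraries, over genes with a sham mean of at least 1 CPM. IRI RIPC replicate 3 lay above both controls for the 3 groups of membrane carriers, complex I (63.5% against 62.3% and 58.8%), complex II and the tricarboxylic acid (TCA) cycle. It lay within their range for endocytosis, complex V, fatty acid oxidation, biogenesis and dynamics, and all genes. It lay below both for complex III (60.4% against 70.9% and 61.5%) and complex IV (75.3% against 76.4% and 86.9%). With library totals alone, complex I was also below both (50.3% against 64% and 59.4%). So were complex V (48.8% against 59.5% and 62.5%), fatty acid oxidation (42.3% against 66.6% and 43.1%) and all genes (51.8% against 77.9% and 64.8%).

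Among single carriers, Slc34a1, the main phosphate carrier of the proximal tubule, was at 900 and 589 CPM in the controls and at 589, 432 and 3191 CPM with RIPC, against 2435 to 5541 CPM after sham surgery. Its log2 fold change was 0.92 ± 0.69 and −0.52 without IRI RIPC replicate 3. Slc5a2, the glucose carrier SGLT2, was at 176 and 243 CPM in the controls and at 294, 103 and 759 CPM with RIPC, a log2 fold change of 0.88 ± 0.70 and −0.06 without replicate 3. Both genes were highest in replicate 3, and their groups overlapped. Antisense genes share 11.7% of the exonic bases of Slc34a1 and 20.6% of those of Slc5a2, so both are uncertain.

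Slc22a6 and Slc22a8 encode the organic anion carriers OAT1 and OAT3. Slc22a6 was at 75.3 and 33.3 CPM in the controls and at 49.9, 32.7 and 204 CPM with RIPC, and Slc22a8 was at 285 and 116 CPM in the controls and at 205, 50.6 and 623 CPM with RIPC. Slc6a19, a carrier of neutral amino acids, was at 241 and 110 CPM in the controls and at 101, 90.7 and 474 CPM with RIPC. In each of these genes the first and second RIPC libraries lay within or below the range of the controls. Without replicate 3 the log2 fold changes of Slc22a6, Slc22a8 and Slc6a19 were −0.37, −0.64 and −0.85.

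A few carriers were higher in every RIPC library. Slc13a1, the sulfate carrier, was at 26.3 and 29.3 CPM in the controls and at 39.9, 47.2 and 152 CPM with RIPC, a log2 fold change of 1.52 ± 0.65 (unadjusted p = 0.0345 and adjusted p = 0.778 by edgeR with Benjamini-Hochberg adjustment). It remained far below its sham range of 488 to 1436 CPM. Slc5a8, another sodium-coupled carrier of monocarboxylates, singled out after its values were seen, was at 8.83 and 12.8 CPM in the controls and at 17.5, 23.4 and 13.4 CPM with RIPC. The RIPC libraries did not overlap with the controls for either gene. Slc13a3, a carrier of dicarboxylates, was at 2.43 and 13.4 CPM in the controls and at 30.9, 12.2 and 160 CPM with RIPC, where replicate 2 lay between the controls. Its log2 fold change was 3.10 ± 1.02, with an unadjusted p of 0.00838 and an adjusted p of 0.778 in the same edgeR test, and without replicate 3 it was 1.47.

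Other members of the fixed panel differed less. Slc4a4, the basolateral sodium bicarbonate cotransporter, was at 147 and 272 CPM in the controls and at 145, 73.5 and 375 CPM with RIPC. Aqp1, the water channel of the proximal tubule, was at 18.5 and 95.02 CPM in the controls and at 31.1, 2.02 and 44.5 CPM with RIPC. Their log2 fold changes were −0.08 ± 0.61 and −1.13 ± 0.93, within the spread between libraries. Slc16a9 was detected in 1 RIPC library at 2.80 CPM and Slc7a12 in 1 control library at 8.82 CPM, so that the fit gave large log2 fold changes that rest on a single library each, and antisense genes share 23.5% of the exonic bases of Slc16a9.

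Lrp2 and Cubn encode megalin and cubilin, the receptors that take up filtered protein. Lrp2 was at 154 and 62.8 CPM in the controls and at 73.9, 106 and 184 CPM with RIPC. Cubn was at 70.4 and 21.2 CPM in the controls and at 41.3, 7.98 and 105 CPM with RIPC. Their groups overlapped, with log2 fold changes of 0.16 ± 0.66 and 0.16 ± 0.84, or −0.24 and −0.88 without replicate 3. Dab2, an endocytic adaptor of both receptors (chr15:6299788-6440712, plus strand), was at 1058 and 903 CPM in the controls and at 517, 628 and 371 CPM with RIPC. All RIPC libraries were below both controls, and the log2 fold change was −0.96 ± 0.40 (unadjusted p = 0.0311, adjusted p = 0.778 by edgeR with Benjamini-Hochberg adjustment). Myo6, a motor of endocytic vesicles, was at 27.5 and 20.5 CPM in the controls and at 30.0, 30.2 and 122 CPM with RIPC, without overlap, and its log2 fold change of 1.34 became 0.36 without replicate 3.

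Of 65 injury genes, 56 passed the filter, and none was differentially regulated between RIPC and control at an adjusted p under 0.05 in edgeR. With unadjusted p under 0.05, none was higher and 1 was lower. The median log2 fold change was −0.20, with 25 of 56 genes above 0, against 14019 of 25917 for all genes. Groups did not overlap for 7 genes in the lower direction (12.5%, against 8.89% of all genes) and for 2 in the higher direction (3.57%, against 7.76%). The balance turned with library totals alone, to 4 lower (7.14%, against 7.68%) and 5 higher (8.93%, against 7.42%). Without IRI RIPC replicate 3 the counts were 11 lower (19.6%, against 14.1%) and 3 higher (5.36%, against 15.4%). The median injury gene was at 269% and 201% of the sham mean in the controls and at 173%, 223% and 163% with RIPC, which overlapped. This sham mean includes Sham Control replicate 1, which carried injury transcripts. Its mean log2(CPM + 1) over the injury genes was 5.03, against 2.48 to 3.31 in the other sham libraries.

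Havcr1 (chr11:46735080-46779578, plus strand) was at 727 and 612 CPM in the controls and at 400, 536 and 80.2 CPM with RIPC. Every RIPC library was below both controls, and IRI RIPC replicate 3 was at the level of Sham Control replicate 1. The log2 fold change was −0.98 ± 2.0 with an adjusted p of 1 in edgeR with Benjamini-Hochberg adjustment, and its sham libraries ranged from 0 to 82.8 CPM. Lcn2 was at 87.3 and 231 CPM in the controls and at 21.2, 102 and 0.189 CPM with RIPC, and its groups overlapped. Spp1, which encodes osteopontin, was at 11430 and 14970 CPM in the controls and at 8207, 16050 and 2695 CPM with RIPC, and 18.8% of its exonic bases are shared with a second gene on the same strand. Replicate 3 held the lowest value of the 5 IRI libraries for all of these genes.

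This did not hold for injury genes in general, since IRI RIPC replicate 3 was also the highest of the 5 IRI libraries for 17 of 56 injury genes (30.4%, against 20% of all genes), and with library totals alone for 14 (25%, against 13.3%). Fosl1, a subunit of the AP-1 transcription factor, was at 63.2 and 147 CPM in the controls and at 82.7, 23.7 and 635 CPM with RIPC, and it was 0 in every sham library. Sox9, a regulator of tubular repair, was at 109 and 137 CPM in the controls and at 121, 178 and 394 CPM with RIPC. Sox9 was singled out after its values were seen, and Fosl1 was named because it is 1 of the genes called between IRI and sham. Cdkn1a, the cell-cycle inhibitor p21, was at 518 and 341 CPM in the controls and at 442, 221 and 564 CPM with RIPC, with 7.68% of its exonic bases shared with an antisense gene. These genes were highest in replicate 3.

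Of 5 keratins of simple and stressed epithelium tested, 4 had a log2 fold change above 0, against 14019 of 25917 for all genes. Krt20 (chr11:99428403-99438150, minus strand) was at 993 and 991 CPM in the controls and at 1379, 414 and 1491 CPM with RIPC, against 0 to 16.7 CPM after sham surgery. Krt8 was at 869 and 384 CPM in the controls and at 659, 437 and 1143 CPM with RIPC, and Krt18 was at 33.8 and 10.5 CPM in the controls and at 10.8, 44.7 and 124 CPM with RIPC. Krt80, the member with the smallest p in the lower direction, had a log2 fold change of −0.67 ± 1.85. No keratin separated the groups, and without replicate 3 the log2 fold changes of Krt20 and Krt8 turned to −0.13 and −0.17, while that of Krt18 was 0.37 in place of 1.44.

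Further markers differed within the spread between libraries. Clu, the chaperone clusterin, was at 42.3 and 54.6 CPM in the controls and at 17.2, 413 and 62.9 CPM with RIPC. Vcam1, an adhesion molecule of unrepaired tubular cells, was at 0.567 and 0.572 CPM in the controls and at 5.57, 0.642 and 0.944 CPM with RIPC. Cd44, the hyaluronan receptor, was at 0.810 and 0 CPM in the controls and at 37.1, 1.06 and 10.6 CPM with RIPC, with a log2 fold change of 5.30 ± 2.69 and an adjusted p of 0.778 by edgeR with Benjamini-Hochberg adjustment. The RIPC libraries were above both controls for Vcam1 and Cd44, although replicate 2 was near the controls for both. The serine protease Plau had a log2 fold change of −1.68 ± 1.24. Timp1, an inhibitor of matrix proteases on the X chromosome, was detected in 1 library of each IRI group, at 10.1 and 12.7 CPM, and was 0 in the remaining IRI and all sham libraries.

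Fgb, the fibrinogen beta chain, was at 598 and 397 CPM in the controls and at 525, 466 and 21.5 CPM with RIPC. The complement factor C3 was at 16.1 and 57.8 CPM in the controls and at 0.117, 6.61 and 13.1 CPM with RIPC. C3 was lower in every RIPC library, whereas Fgb was low in replicate 3 alone and had a log2 fold change of 0.02 without it. The C3 log2 fold change was −2.49 ± 1.32, with an adjusted p of 0.778 by edgeR with Benjamini-Hochberg adjustment. Cfb, complement factor B, had a log2 fold change of 0.79 (−0.14 without replicate 3), but shares 79.5% of its exonic bases with a second annotated gene and is uncertain.

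Among the chemokines, Cxcl10 (chr5:92346638-92348889, minus strand), which attracts T cells and is induced by interferon, had no read in any RIPC library and 16.4 and 51.4 CPM in the controls. The RIPC group was at least 744-fold lower against a floor of 3 reads over the group. Sham libraries ranged from 0 to 14.1 CPM. The unadjusted p was 0.00171 and the adjusted p 0.703 in edgeR's quasi-likelihood test with Benjamini-Hochberg adjustment, and 5.91% of its exonic bases are shared with Art3. Cxcl1, a neutrophil chemokine, was at 47.9 and 71.9 CPM in the controls and at 35.5, 56.7 and 58.3 CPM with RIPC, with a log2 fold change of −0.26 ± 1.35. Ccl2, a monocyte chemokine, was detected only in 1 control library after IRI, at 4.46 CPM. Icam1, an adhesion molecule for leukocytes, was at 12.6 and 3.96 CPM in the controls and at 25.0, 24.9 and 8.59 CPM with RIPC, and its groups overlapped, with 11.7% of its exonic bases shared with an antisense gene.

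**Figure D3:**
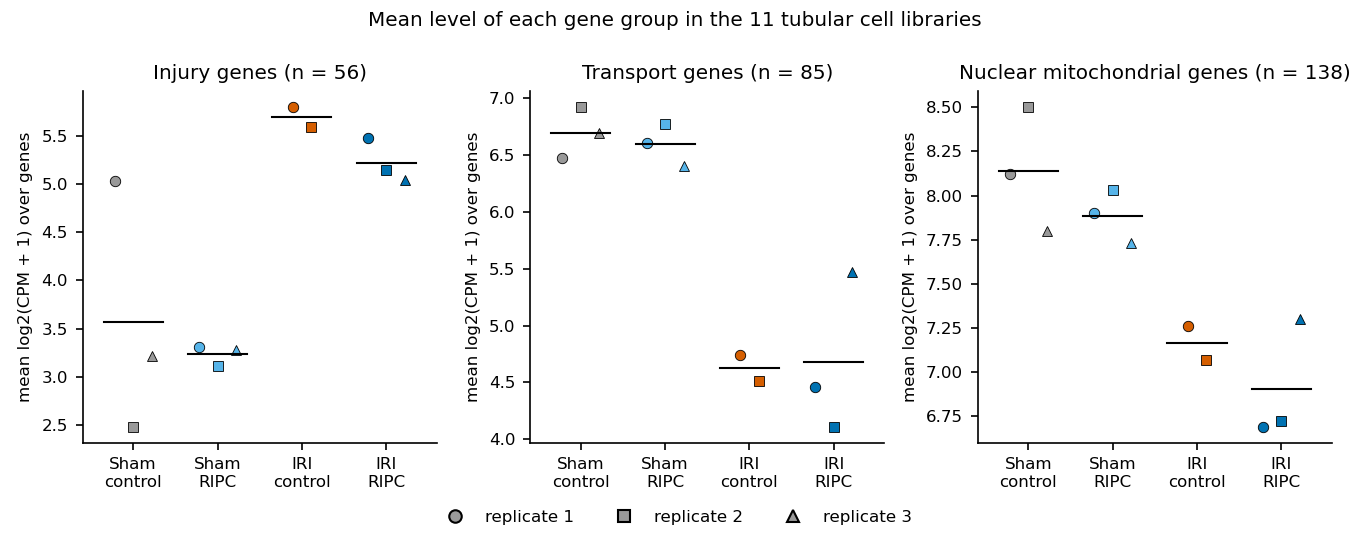
Mean log2(CPM + 1) over the 56 injury, 85 transport and 138 nuclear mitochondrial genes in each of the 11 TECs libraries, with 1 point per library and a line at the mean of each group. On this TMM scale, IRI RIPC replicate 3 lay above both IRI controls for transport genes (5.47 against 4.74 and 4.51). All 3 RIPC libraries lay below both controls for injury genes, and means with library totals alone were not computed.

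The mean log2(CPM + 1) over the 56 injury genes was 5.80 and 5.60 in the controls and 5.48, 5.15 and 5.04 with RIPC, a difference of −0.47 (−0.38 without IRI RIPC replicate 3). Over the 85 transport genes it was 4.74 and 4.51 in the controls and 4.46, 4.11 and 5.47 with RIPC, a difference of 0.05 that became −0.34 without replicate 3. On this TMM scale the injury mean was lower in every RIPC library, and the transport mean was not higher in every one. Means with library totals alone were not computed. On that scale, injury genes without overlap were 4 lower (7.14%) and 5 higher (8.93%), against 7.68% and 7.42% of all genes. Sham libraries ranged from 2.48 to 5.03 for injury genes and from 6.40 to 6.92 for transport genes.

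Of 143 mitochondrial genes of the nuclear genome, 138 passed the filter, and none was differentially regulated between RIPC and control in edgeR at an adjusted p under 0.05. At an unadjusted p under 0.05, none was higher and 2 were lower. Only 33 of 138 had a log2 fold change above 0 (against 14019 of 25917 for all genes), with a median of −0.18. Groups did not overlap for 23 genes in the lower direction (16.7%, against 8.89% of all genes) and for 1 in the higher direction (0.725%, against 7.76%). With DESeq2 size factors this was 15 genes lower (10.9%), against 8.14% of all genes, and with library totals alone 18 genes (13%), against 7.68%. Without replicate 3 of RIPC, 56 of 138 genes (40.6%) were lower without overlap, against 14.1% of all genes.

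The median mitochondrial gene was at 60.1% and 57.4% of the sham mean in the controls and at 40.5%, 41.2% and 62.6% with RIPC. In replicates 1 and 2, 94 and 73 of 138 genes were below both controls (against 23.6% and 26.3% of all genes), and 12 and 21 were above both (against 31.9% and 32.8%). In replicate 3, 47 were below both (against 25.2%) and 56 above both (against 31.2%). The library scaling bears on the last: with library totals alone, the median of replicate 3 was 49.7%, against 49.3% and 51.6% in replicates 1 and 2 and 62% and 58% in the controls. On that scale replicate 3 was the highest library for 22 mitochondrial genes (15.9%, against 13.3% of all genes) in place of 54 (39.1%, against 20%). Complex IV genes were the least reduced, at 76.4% and 86.9% of sham in the controls and at 53.9%, 77.4% and 75.3% with RIPC. TCA cycle genes were at 33.8% and 35.2% in the controls and at 31.3%, 20.2% and 62.4% with RIPC.

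Ndufs1, the largest subunit of complex I, was at 63.9 and 135 CPM in the controls and at 76.9, 28.7 and 21.4 CPM with RIPC. Sdha, the catalytic subunit of complex II, was at 195 and 226 CPM in the controls and at 161, 299 and 791 CPM with RIPC. Uqcrc2, a core subunit of complex III, was at 284 and 285 CPM in the controls and at 206, 37.8 and 247 CPM with RIPC. Among these subunits the groups separated for Uqcrc2, in the lower direction. Cox4i1 of complex IV was at 1021 and 1221 CPM in the controls and at 765, 966 and 904 CPM with RIPC, also without overlap. Atp5a1, the alpha subunit of ATP synthase, was at 1080 and 557 CPM in the controls and at 837, 576 and 1739 CPM with RIPC, and its groups overlapped. Without replicate 3, the log2 fold change of Sdha was 0.16 in place of 0.99, and that of Atp5a1 turned from 0.36 to −0.19. Antisense genes share 19.7% of the exonic bases of Uqcrc2, 9.94% of those of Cox4i1 and 6.16% of those of Ndufs1. Log2 fold changes of these 5 genes lay between −1.23 and 0.99 with adjusted p of 0.778 or more by edgeR with Benjamini-Hochberg adjustment.

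Atp5g3, a subunit of the proton ring of ATP synthase, was at 273 and 233 CPM in the controls and at 149, 146 and 155 CPM with RIPC. The RIPC libraries of this gene were close to each other and below both controls, with a log2 fold change of −0.75 ± 0.45. The remaining members with the smallest p of their complex were Ndufa3 at 0.29 ± 0.58, Sdhd at −0.25 ± 0.51 and Cox7a2l at 0.18 ± 0.56 (−0.04 without replicate 3).

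In fatty acid oxidation, Acadm, the medium-chain acyl-CoA dehydrogenase, was at 211 and 102 CPM in the controls and at 104, 54.5 and 380 CPM with RIPC, a log2 fold change of 0.19 that became −0.96 without replicate 3. Hadha, of the trifunctional protein, was at 147 and 118 CPM in the controls and at 97.8, 16.3 and 186 CPM with RIPC. Decr1, the dienoyl-CoA reductase (chr4:15917240-15945507, minus strand), was at 212 and 180 CPM in the controls and at 61.6, 115 and 101 CPM with RIPC. All RIPC libraries were below both controls for Decr1, with a log2 fold change of −1.08 ± 0.47 (unadjusted p = 0.0383, adjusted p = 0.778 by edgeR with Benjamini-Hochberg adjustment). Echs1, the enoyl-CoA hydratase, was the only 1 of the 138 genes above both controls in every RIPC library, at 199 and 132 CPM in the controls and at 218, 321 and 284 CPM with RIPC. In the TCA cycle list, Pcx, pyruvate carboxylase, was at 86.9 and 26.5 CPM in the controls and at 135, 58.6 and 213 CPM with RIPC, and Mdh2, malate dehydrogenase, had a log2 fold change of −0.31 ± 0.52.

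Genes of mitochondrial biogenesis and dynamics were mostly lower with RIPC, with 7 of 22 above 0, against 14019 of 25917 for all genes. Ppargc1a, the coactivator PGC-1alpha that drives mitochondrial biogenesis, was at 28.8 and 12.4 CPM in the controls and at 9.31, 21.8 and 5.81 CPM with RIPC, and its groups overlapped. Twnk, the helicase that copies mitochondrial DNA (chr19:45005663-45012762, plus strand), was at 10.0 and 24.4 CPM in the controls and at 1.52, 0.184 and 1.04 CPM with RIPC. All RIPC libraries were below both controls for Twnk, with a log2 fold change of −4.23 ± 1.52 (unadjusted p = 0.0144, adjusted p = 0.778 by edgeR with Benjamini-Hochberg adjustment). Of its exonic bases, 12.6% are shared with the antisense gene Mrpl43. Mfn2, a mitochondrial fusion protein, had a log2 fold change of 1.63 ± 1.15, and it was at 1.38 CPM in 1 control library and 33.7 CPM in the other.

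The 13 protein-coding genes of the mitochondrial genome encode core subunits of the respiratory chain. They were fitted together with the sex chromosomes in a fit of 27177 genes, of which 1 (0.00368%) was called and 8.88% were lower without overlap. All 13 had a log2 fold change below 0, with a median of −0.72 and a range of −0.94 to −0.24, where the median of all genes in that fit was 0.15. In 11 of 13 the RIPC libraries were below both controls, 8 had an unadjusted p under 0.05 (against 4.35% of all genes in that fit), and the smallest adjusted p by edgeR with Benjamini-Hochberg adjustment was 0.773. mt-Cytb, cytochrome b, was at 42510 and 41370 CPM in the controls and at 24040, 16120 and 25340 CPM with RIPC. mt-Nd4, a complex I subunit, was at 14810 and 16850 CPM in the controls and at 9162, 7145 and 10160 CPM with RIPC, and mt-Co1 of complex IV was at 23090 and 24670 CPM in the controls and at 16100, 9285 and 18080 CPM with RIPC. Transcripts of this genome took 21.4% and 23.9% of the reads in the controls, 17.7%, 15.8% and 13.1% with RIPC and 18.8% to 29.1% after sham surgery. These genes share 1 transcribed genome, so they are not independent of each other.

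Narfl belongs to a list of 25 genes, 24 of them tested, that build iron-sulfur clusters for respiratory and cytosolic enzymes. Groups did not overlap for 8 of 24 in the lower direction (33.3%), Narfl, Ciao1, Ciao2a, Nubp2, Ndor1, Iscu, Hscb and Glrx5, against 8.89% of all genes. Narfl, known for this comparison beforehand, is counted in this share, which is therefore fixed in part by the choice of the list. The share under other scalings or without IRI RIPC replicate 3 was not computed. Lyrm4 alone was higher without overlap, at 32.9 and 12.2 CPM in the controls and at 35.3, 52.3 and 51.4 CPM with RIPC. None of the genes but Narfl had an adjusted p under 0.05 in edgeR. Iscu, the scaffold protein on which clusters form, was at 216 and 249 CPM in the controls and at 125, 150 and 173 CPM with RIPC. Ndor1, an electron donor of cytosolic assembly, was at 24.9 and 25.5 CPM in the controls and at 0.0390, 0 and 17.5 CPM with RIPC, low in replicates 1 and 2 only. The members other than Narfl and Lyrm4 were named after their values were seen.

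H2-DMb1 encodes a chain of H2-DM, which loads peptide onto MHC class II in antigen-presenting cells (chr17:34153072-34160230, plus strand). It was at 0.527 and 0 CPM in the controls and at 46.1, 15.2 and 12.0 CPM with RIPC, with sham libraries at 11.7 to 38.4 CPM. Every RIPC library was above both controls and 1 of them was above all sham libraries. The log2 fold change was 6.49 ± 1.66 with an adjusted p of 0.652 by edgeR with Benjamini-Hochberg adjustment. Reads of 50 bases do not always tell H2-DMb1 from its neighbor H2-DMb2. H2-DMb2 held 100.4 and 114.8 estimated reads in the controls and 307.5, 135.5 and 114.9 with RIPC. The controls were therefore not empty at this pair of genes, and the fold change of H2-DMb1 depends on how reads were split between them. The error of that split was not tested. Of 734 windows of 50 bases in the coding sequence of H2-DMb1, 353 (48.1%) occur identically in H2-DMb2. A pair of windows shows both situations a read can be in, with bases that differ between the genes in capitals, both read from GRCm38 on the plus strand. A read from the shared window matches both genes, at chr17:34155472-34155521 in H2-DMb1 and at chr17:34147690-34147739 in H2-DMb2, and a read from the other window, at chr17:34155562-34155611 and chr17:34147780-34147829, matches 1 of them.
H2-DMb1 and H2-DMb2, shared window: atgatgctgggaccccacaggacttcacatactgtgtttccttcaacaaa
H2-DMb1, window with 10 differing bases: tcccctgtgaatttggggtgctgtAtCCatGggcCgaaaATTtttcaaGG
H2-DMb2, window with 10 differing bases: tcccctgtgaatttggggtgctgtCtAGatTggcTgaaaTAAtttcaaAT

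The other MHC class II genes were high in IRI RIPC replicate 1. Of 11 genes of the class II list tested, H2-DMb1 included, all had a log2 fold change above 0 (against 14019 of 25917 for all genes), with a median of 2.65. Of these, 3 separated the groups in the higher direction (27.3%, against 7.76% of all genes). H2-DMb1, known for this comparison beforehand, is among them, so this share is fixed in part by the choice of the list. The summed level was 194.9 and 75.4 CPM in the controls and 1498, 47.6 and 262 CPM with RIPC, against 69.0 to 165 CPM after sham surgery. Replicate 1 was the highest library for 8 of 11 genes, and replicate 2 was below both controls in the sum. Ctss, the protease cathepsin S, had no read in the controls and 21.6, 14.6 and 9.58 CPM with RIPC. Cd74, the invariant chain, was at 127 and 5.91 CPM in the controls and at 903, 0.367 and 103 CPM with RIPC. Ctss and Cd74 were named after their values were seen. A list of 19 genes, put together for this report around the pathway the study proposes, had no gene under an adjusted p of 0.05 in edgeR. Its leading gene Tlr4, a receptor of HMGB1, was at 0.122 and 0 CPM in the controls and at 12.4, 2.34 and 5.67 CPM with RIPC, and Igfbp7 had a log2 fold change of −0.80 ± 0.60.

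Markers of other cell types also differed between the IRI libraries. The summed level of 5 podocyte genes was 1608 and 428.4 CPM in the controls and 1693, 7.94 and 33.5 CPM with RIPC, against 7.94 to 212.6 CPM after sham surgery. All 5 podocyte markers were detected in both controls and in replicate 1, and 1 and 2 of them were at 0 in replicates 2 and 3. The summed level of 9 endothelial genes was 478.4 and 203.6 CPM in the controls and 208, 24.0 and 7.08 CPM with RIPC, against 6.64 to 126.5 CPM after sham surgery. Endothelial markers were thus high in the controls and replicate 1 and low in replicates 2 and 3, and 0 and 2 of the 9 were at 0 in the controls and 0, 4 and 3 in the RIPC libraries. Macrophage markers summed to 182.1 and 244.9 CPM in the controls and to 269.1, 117.5 and 113.8 CPM with RIPC. Neutrophil markers summed to 74.49 and 85.1 CPM in the controls and to 150.3, 64.5 and 31.6 CPM with RIPC, stromal markers to 67.56 and 15.4 CPM and to 121.4, 45.87 and 24.45 CPM, and lymphocyte markers to 20.05 and 11.68 CPM and to 25.79, 44.27 and 27.14 CPM. Markers of the distal tubule and collecting duct summed to 202.4 and 634.1 CPM in the controls and to 97.71, 450.5 and 240.1 CPM with RIPC, dendritic cell markers to 22.11 and 29.61 CPM and to 14.03, 16.19 and 32.53 CPM, and erythrocyte markers to 540.8 and 165.3 CPM and to 842.4, 78.99 and 711.2 CPM. Podocyte, endothelial, macrophage and neutrophil sums were below both controls in IRI RIPC replicates 2 and 3. Their part in the results above was not tested.

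**Figure D4:**
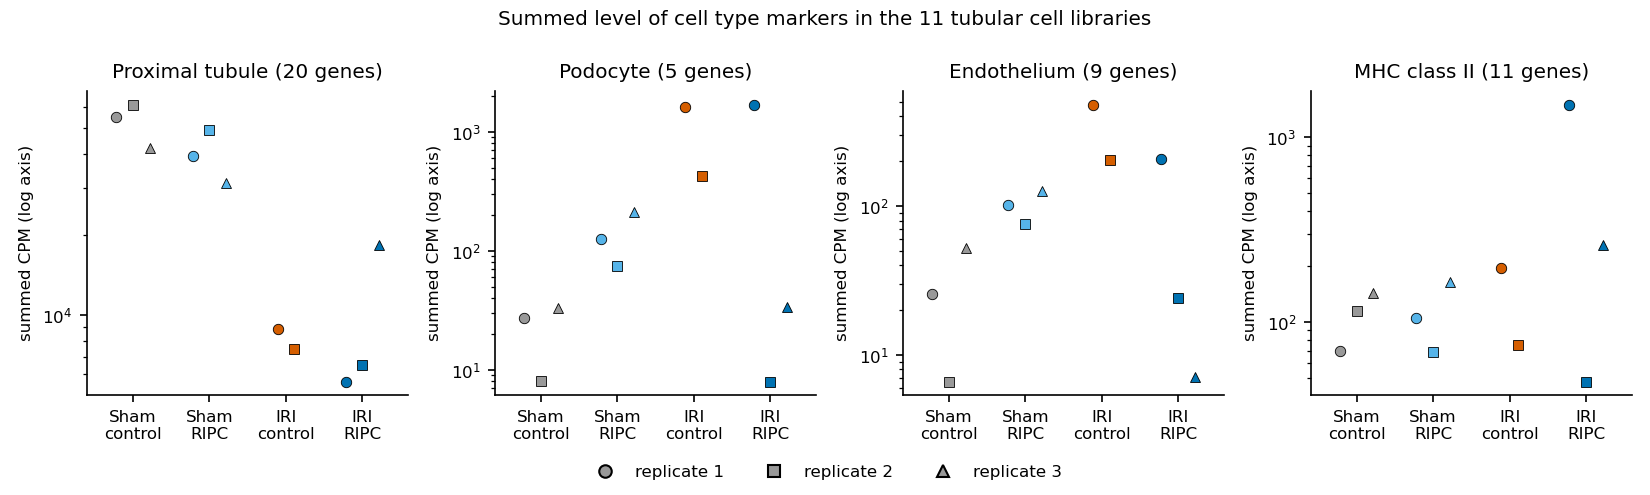
Summed CPM (log axis) of the marker genes of the proximal tubule, podocytes, endothelium and MHC class II in each of the 11 TECs libraries, with 1 point per library. The proximal tubule sum was highest among the IRI libraries in IRI RIPC replicate 3 (18280), podocyte markers were high in both controls and in IRI RIPC replicate 1, and MHC class II was highest in IRI RIPC replicate 1 (1498).

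How IRI changed the same genes was compared with sham surgery in each arm. The IRI control group against Sham Control gave 1 gene (0.00386%), and the IRI RIPC group against Sham RIPC gave 25 (0.0965%), of which 4 (0.0154%) were higher and 21 (0.081%) lower, at an adjusted p under 0.05 in edgeR with Benjamini-Hochberg adjustment. The 1 gene was Slc5a12, which fell by 10.52 on the log2 scale (adjusted p = 0.0283) without RIPC. With RIPC, Slc5a12 was 3.29 lower on the log2 scale and did not pass the test (adjusted p = 0.149). The interaction itself was 7.23 with an adjusted p of 0.304 by edgeR with Benjamini-Hochberg adjustment, so the arms were not shown to differ. No gene passed the test of the interaction in edgeR, in which 1869 genes (7.21%) had an unadjusted p under 0.05, and DESeq2's Wald test called 597. Without Sham Control replicate 2 or 3, or without Sham RIPC replicate 1 or 3, no gene was called between IRI and sham without RIPC, and the calls with RIPC ranged from 4 to 215 over the libraries left out.

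With RIPC, the genes of these lists that changed between IRI and sham were Fosl1 (adjusted p 0.0235, with no read in any sham library) and Krt20 (log2 fold change 13.12, adjusted p 0.0482) among injury genes, which rose, and Slc13a1 (−3.48, 0.0487), Narfl (−11.62, 0.00208) and Keg1 (−4.65, 0.0306), a glycine N-acyltransferase-like gene of the kidney, which fell, all by edgeR with Benjamini-Hochberg adjustment. The adjusted p of these genes without RIPC ranged from 0.0576 (Fosl1) to 0.450 (Narfl). Transport genes were lower in IRI without overlap for 56 of 85 without RIPC and 46 with RIPC, against 9.57% and 9.9% of all genes. Both arms shared 41 of these (73.2% and 89.1%), against 42.6% and 41.2% of all genes lower in the respective arm. The corresponding numbers for 138 mitochondrial genes were 92 and 76, of which 63 were shared (68.5% and 82.9%), and injury genes were higher without overlap for 23 and 26 of 56, against 13.7% and 7.64% of all genes, of which 16 were shared (69.6% and 61.5%, against 18% and 32.3% of all genes higher in the respective arm).

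The median log2 change from sham to IRI was −1.92 without and −1.56 with RIPC for transport genes, −0.92 and −0.80 for mitochondrial genes, and 1.52 and 2.90 for injury genes. The median interaction, which is the difference between the arms per gene, was 0.50 for transport, 0.14 for mitochondrial and 1.09 for injury genes, beside −0.08 over all genes. Sham Control replicate 1 is the library with injury transcripts of its own, and without it 36 of 56 injury genes were higher in IRI without overlap in place of 23. Without IRI RIPC replicate 3, transport genes lower in IRI with RIPC numbered 63 in place of 46 and mitochondrial genes 96 in place of 76. All-gene shares in these comparisons were 14.2% to 19.4% without Sham Control replicate 1 and 14.4% to 15% without IRI RIPC replicate 3.

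**Figure D5:**
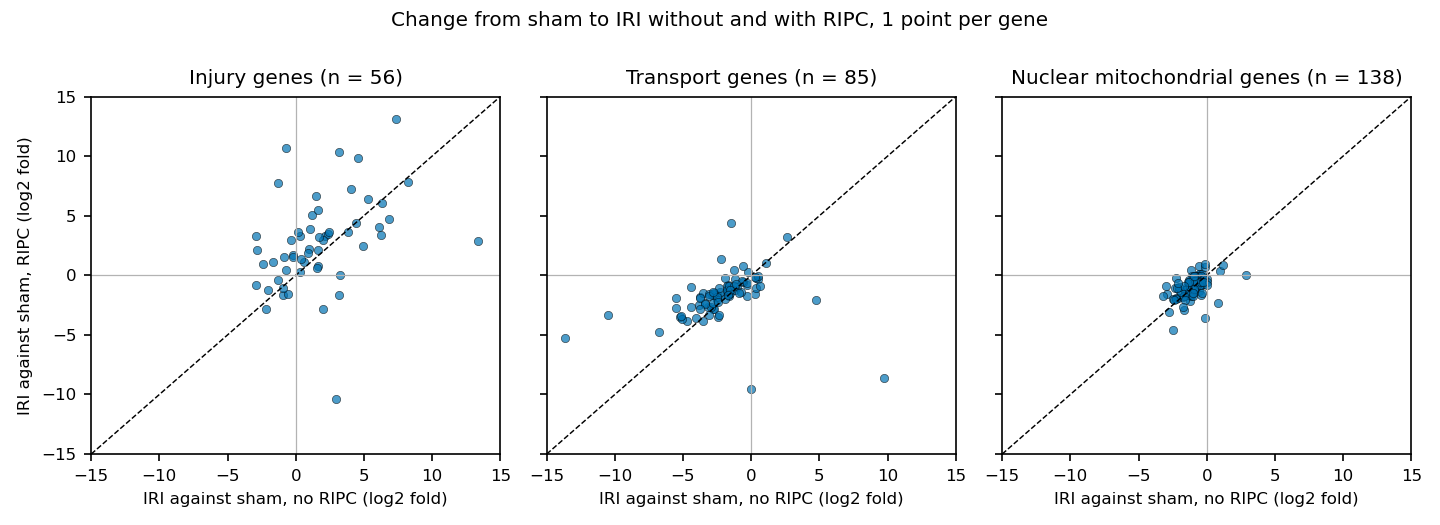
Log2 fold change from sham to IRI of each injury, transport and nuclear mitochondrial gene without RIPC (horizontal axis) and with RIPC (vertical axis), 1 point per gene, with a dashed line where both are equal. Transport genes lay mostly below 0 on both axes, with medians of −1.92 and −1.56, and injury genes mostly above 0, with medians of 1.52 and 2.90. The sham group of the horizontal axis includes Sham Control replicate 1, which carried injury transcripts of its own.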

How the data were processed

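TECs were profiled by RNA-Seq of poly(A) RNA as single-end reads of 50 bases, and libraries were grouped by their labels. Per the labels, the authors trimmed reads with Trim Galore 0.6.4 and quantified them with Salmon 1.0.0 against the mm10 build, with FastQC, MultiQC and DESeq2 also named. The deposited values used here are estimated counts per transcript made by the authors, without normalization. Each library had 2 files, whose difference is not given in the sources used here, and their estimated counts were added, summed over the transcripts of a gene with Gencode M21 (GRCm38) and rounded. Of 140748 transcripts, 884 had no gene in this annotation. Gene counts of the 2 files differed by more than counting error in IRI RIPC replicates 2 and 3. There the chi-square per degree of freedom was 2.295 and 3.964, against 0.9456 to 1.323 in the other TECs libraries. Intervals and floors for counting error do not include this excess.

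Tests were edgeR 4.0.16 (R 4.3.3, limma 3.58.1) quasi-likelihood F tests on all 11 TECs libraries, with 1 mean per group, TMM, filterByExpr by group, autosomal genes only, and Benjamini-Hochberg adjustment at 0.05 over the 25917 genes tested. The fits ran on 7 residual degrees of freedom. CPM are counts at one library depth after TMM scaling. Means over a list used log2(CPM + 1). The test of RIPC against control was also run on simulated counts. At the dispersion of the data, only the direction of the recovered changes was required to be right. Recovery itself was required only with the dispersion multiplied by 0.05, so the check does not show the power of the test in these data. Members and gene lists were chosen with earlier results of these data known. List members not tested were low in all groups, and X-linked members were fitted only with the other chromosomes. Named genes were Narfl, Slc5a12 and H2-DMb1, called genes, the 5 lowest p per direction among genes without overlap whose mean count reached 10, a fixed panel, and the member of each list with the smallest p per direction.

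Alternatives were DESeq2 size factors, no low-count filter or at least 10 counts in every library, each file alone, an offset for transcript length, all chromosomes, robust dispersion, a replicate block, a fit of only the groups compared, leaving out libraries one by one, and DESeq2 1.42.0 with the Wald test or with apeglm 1.24.0 (s value under 0.01). Library totals as the only scaling were added after seeing the data.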

Additional observations from a re-analysis of the deposited data

How the results depend on the processing

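Limits were set by 2 and 3 libraries per IRI group and a wide spread. Genes called between RIPC and control after IRI, 1 in the report, numbered 71 without a filter, 0 with at least 10 counts in every library, 2 with the first file, 4 with robust dispersion, 0 in the compared groups alone (861 at an unadjusted p under 0.05), 699 with DESeq2's Wald test, 245 with apeglm, and 0 to 22 when 1 library was left out. For IRI against sham without RIPC, 1 in the report, they numbered 8 with DESeq2 size factors, 465 without a filter, 70 with at least 10 counts, 0 with the second file, 15 with the length offset, 29 with robust dispersion, 0 in the compared groups alone, 1317 with the Wald test, 822 with apeglm, and 0 to 135 with 1 library left out. With RIPC, 25 in the report, they numbered 471 without a filter, 81 with at least 10 counts, 38 with robust dispersion, 0 in the compared groups alone, 1013 with the Wald test, 1849 with apeglm, and 4 to 215 with 1 library left out. The interaction, 0 in the report, gave 84 without a filter, 597 with the Wald test, and 0 to 15 with 1 library left out. The median log2 fold change of transport genes ranged from −0.25 to 0.67 with 1 library left out, that of injury genes from −0.32 to 0.05, and that of mitochondrial genes, −0.18 in the report, from −0.33 (without IRI RIPC replicate 3) to −0.058 (without IRI RIPC replicate 1), with −0.085 under DESeq2 size factors and −0.057 with at least 10 counts in every library. The number of mitochondrial genes highest in IRI RIPC replicate 3 was 22 with library totals alone. The cause of these differences was not tested.

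Libraries with the same replicate number did not all deviate together (correlations of −0.144 to 0.236, and not every library correlated best with its own number). Between Control and RIPC libraries of the same number, correlations were −0.00823, 0.236 and 0.158 after sham surgery and 0.0603 and 0.0625 after IRI. Between sham and IRI libraries, every correlation within a number was negative. The IRI control libraries deviated as mirror images of each other, so the check cannot decide whether a number marks libraries processed together. With a replicate block the calls between RIPC and control, between IRI and sham without RIPC and with RIPC were 3, 27 and 49, and log2 fold changes turned to 0.22 for Havcr1, −0.96 for Krt20, 0.12 for Fgb, −0.44 for Slc6a19, −0.13 for Lrp2, −0.20 for Cubn and −0.13 for Acadm. At least 10 counts in every library gave 0.0173 for Cdkn1a, and the length offset gave −0.65 for Lrp2, 0.0213 for Krt80 and −0.002865 for Cfb.

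With 1 library left out, 24 of 68 named genes had log2 fold changes on both sides of 0. Their ranges were Clu −0.28 to 2.30, Krt8 −0.20 to 0.96, Krt20 −0.13 to 0.53, Fgb −1.02 to 0.023, Cdkn1a −0.36 to 0.26, Cxcl1 −0.52 to 0.091, Slc5a2 −0.062 to 1.33, Slc34a1 −0.52 to 1.34, Slc22a6 −0.37 to 1.52, Slc22a8 −0.64 to 1.34, Slc6a19 −0.85 to 1.02, Slc4a4 −0.92 to 0.45, Aqp1 −1.88 to 0.49, Lrp2 −0.32 to 0.95, Cubn −0.88 to 1.27, Atp5a1 −0.19 to 0.92, Acadm −0.96 to 0.81, Hadha −1.21 to 0.10, Plau −3.01 to 1.31, Cfb −0.14 to 2.49, Slc9a3 −2.63 to 7.22, Slc22a19 −4.25 to 0.96, Cox7a2l −0.044 to 0.42, Mdh2 −0.81 to 0.49. Over all 68 genes and settings, 1419 of 1528 values kept their direction and side of the threshold, 47 turned direction, 9 lost and 53 gained a call.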
